A study of Bombyx mori with 6 samples.

Results

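A set of 4 chaperone genes of the endoplasmic reticulum (ER) lumen of the silkworm Bombyx mori was followed across 6 RNA sequencing libraries. They are BiP (KWMTBOMO08642), endoplasmin (KWMTBOMO12844), calreticulin (KWMTBOMO12902) and hypoxia up-regulated protein 1, HYOU1 (KWMTBOMO11064). They were picked by gene identifier, as 4 of the 16877 gene models with values, and all 4 passed the filter on low counts. The product names in the deposited table gave the same 4 identities, and all 4 also matched a RefSeq silkworm gene, BiP under its synonym grp78. Of the libraries, 3 were labelled siNC, a negative control small interfering RNA, and 3 siUFBP1, a small interfering RNA against UFBP1. UFBP1 sits in the ER membrane and takes part in UFMylation, the attachment of the small modifier UFM1 to proteins. The protocols describe P50 strain larvae on day 3 of instar 5, each given 2.5 µg of siRNA by injection and, 12 h later, the baculovirus BmNPV, so that both groups carried virus. Harvests at 24, 48 and 72 h are named with no time for each library. The labels name the fat body as tissue and also BmN, an ovary-derived cell line, and the protocols describe transfected BmN cells as well. The number of larvae or cultures behind each library is not stated, so that the p-values rest on differences among libraries that may be technical repeats. Values after ± are SD over the 3 libraries of a group for levels and ratios, and SE for log2 fold changes and log2 differences.

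BiP is the HSP70 chaperone of the ER lumen. It binds unfolded stretches of new secretory proteins in cycles of ATP binding and hydrolysis, which J-domain co-chaperones start and nucleotide exchange factors end. HYOU1, also called GRP170, is a large HSP70 relative that acts as such an exchange factor for BiP. Endoplasmin, or GRP94, is the HSP90 chaperone of the ER and, in mammals, takes over selected clients after BiP. Calreticulin is a soluble lectin that holds glycoproteins carrying a single glucose on their glycan, and it stores calcium. The larval fat body secretes storage proteins and lipoproteins into the hemolymph in bulk, and the series title names BiP as the chaperone under study.

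Library totals ran from 25570725 to 53204480 counts. UFBP1 itself (KWMTBOMO13599) ranged over 31.1 to 36.5 CPM (counts scaled to library size with TMM factors) among siNC libraries and over 32.7 to 34.6 CPM among siUFBP1 libraries, at a log2 fold change of 0.0043 ± 0.06 (edgeR, adjusted p = 0.951). Scaled to library size alone it ran from 23.9 to 27.9 in siNC and from 41.8 to 47.9 in siUFBP1, higher without overlap (log2 fold change 0.80 ± 0.07; edgeR, adjusted p = 1.58e-10), and with upper quartile scaling it was lower, at -0.14 ± 0.06 (edgeR, adjusted p = 0.0406). Its direction thus turned with the scaling and gave no check of the labels, and directions below are those of libraries labelled siUFBP1. Storage proteins and 30 kDa lipoproteins, the defining products of the larval fat body, took 73.8% to 74.3% of the counts in siNC and 47.3% to 48.8% in siUFBP1. The share of 10 other fat body genes overlapped between groups, at 0.629% to 0.650% in siNC against 0.631% to 0.675% in siUFBP1, with 4 of 8 tested genes lower and 1 higher, where 28.4% of all tested genes were lower and 40% higher. Silk gland genes, of which 5 of 6 tested were higher, took 0.050% to 0.053% of siNC counts but 10.1% to 11.8% of siUFBP1 counts. Replicate 3 of siUFBP1, the deepest library, differed more from the other 2 of its group (chi-square per degree of freedom of 10.8 and 14.4) than these did from each other (2.68). Without it, log2 fold changes were -1.20 for BiP, -1.60 for endoplasmin, -0.97 for HYOU1 and -0.93 for calreticulin. Of 25 ovary and germ line genes, 12 had no count in any library, and the list took at most 0.0063% of the counts. Hemocyte genes took 0.0249% to 0.0258% in siNC and 0.0307% to 0.0326% in siUFBP1, although 19 of 30 tested were lower and 6 higher. Muscle genes rose 5.31-fold in share, with 8 of 8 tested genes higher, testis genes 51.8-fold, with 33 of 34 higher, to at most 0.0571% of the counts, and midgut genes 3.53-fold, with 11 of 14 higher. Apart from the other fat body genes, these shares moved with the groups, and their part in the chaperone results was not tested. In such bulk samples fewer cells of a type and less RNA per cell cannot be told apart.

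All 4 chaperone transcripts were lower in siUFBP1 after TMM scaling, which corrects for library size and for a few genes taking up many counts. In CPM so scaled, BiP stood at 2583, 2636 and 2695 in siNC, against 1142, 1155 and 1157 in siUFBP1. Endoplasmin stood at 319.7, 362.9 and 368 CPM in siNC and at 115.6, 116.4 and 117.2 CPM in siUFBP1. Calreticulin stood at 934, 984 and 1014 CPM in siNC and at 524, 501 and 525 CPM in siUFBP1. The siNC libraries were the high ones for each of these genes, and no siUFBP1 library reached the lowest siNC library. HYOU1 stood at 199, 199 and 215 CPM in siNC and at 102.7, 106.1 and 102.7 CPM in siUFBP1, again without overlap. Across all tested genes, 29.8% were lower in siUFBP1 with no overlap between groups. The spread between siNC libraries was widest for endoplasmin, with a coefficient of variation of 7.62% against 2.13% for BiP. Counting error reached at most 1.69% for any of the 4 genes in any library.

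**Figure D1:**
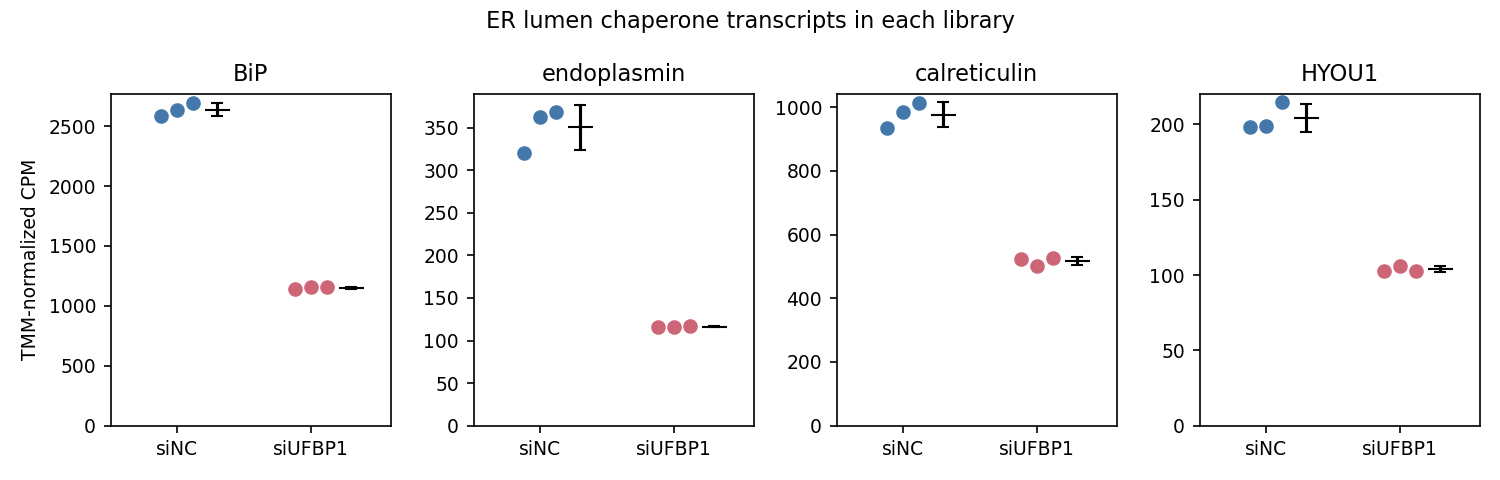
TMM-normalized CPM (y axes, each from 0) of the 4 ER lumen chaperones in each siNC and siUFBP1 library (points), with the group mean and SD beside them (n = 3 each). For each gene the 3 siUFBP1 points lie below all 3 siNC points, by the widest factor for endoplasmin.

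In edgeR's quasi-likelihood test over 10729 genes, with Benjamini-Hochberg adjustment over all of them, all 4 genes were called lower at an adjusted p of 0.05. The background for this call was 28.4% of tested genes, so the call alone does not set the chaperones apart. Endoplasmin fell most, by 1.59 ± 0.04 on the log2 scale (edgeR, adjusted p = 4.93e-16), a 3.01-fold decrease. BiP fell by 1.20 ± 0.03, HYOU1 by 0.97 ± 0.04 and calreticulin by 0.92 ± 0.03 on the same scale (SE; edgeR, adjusted p = 3.46e-17, 4.17e-14 and 2.03e-14). A decrease of at least 2-fold, which 5.11% of tested genes passed, was met by endoplasmin and BiP, while HYOU1 at 1.97-fold and calreticulin at 1.89-fold lay just short of it. In the authors' deposited table, too, BiP (log2 fold change -1.20) and endoplasmin (-1.60) are called down, whereas calreticulin (-0.92) and HYOU1 (-0.98) are listed as normal under a 2-fold rule. Among the 538 genes with a mean of at least 100 CPM, 9 had a lower log2 fold change than endoplasmin (1.67%) and 38 a lower one than BiP (7.06%). For HYOU1 this number was 79 (14.7%) and for calreticulin 94 (17.5%).

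The size of each decrease depended on the scaling. A scaling moves all genes of a library by the same factor, so it could hardly change the order of the 4 decreases. That order ran from endoplasmin through BiP and HYOU1 to calreticulin, although the last 2 were not told apart by their ratio. With library size alone, log2 fold changes were -0.79 ± 0.05 for endoplasmin, -0.40 ± 0.04 for BiP, -0.18 ± 0.05 for HYOU1 and -0.12 ± 0.05 for calreticulin (SE). All 4 still passed in edgeR, with adjusted p of 9.71e-13, 2.56e-09, 0.00261 and 0.0194 in that order. In this scaling the median of all tested genes lay at 0.92, against 0.11 with TMM, and 4.22% of tested genes were called lower and 80.2% higher. Upper quartile scaling gave -1.73, -1.34, -1.12 and -1.06 for the same 4 genes, with the all-gene median at -0.03, 35.5% of genes lower and 33.9% higher. Each chaperone lay below the median of all genes in each of these scalings. Both move together with the scaling, so the distance between them is no separate result of each. The size of each chaperone's decrease on an absolute scale cannot be told from these libraries.

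**Figure D2:**
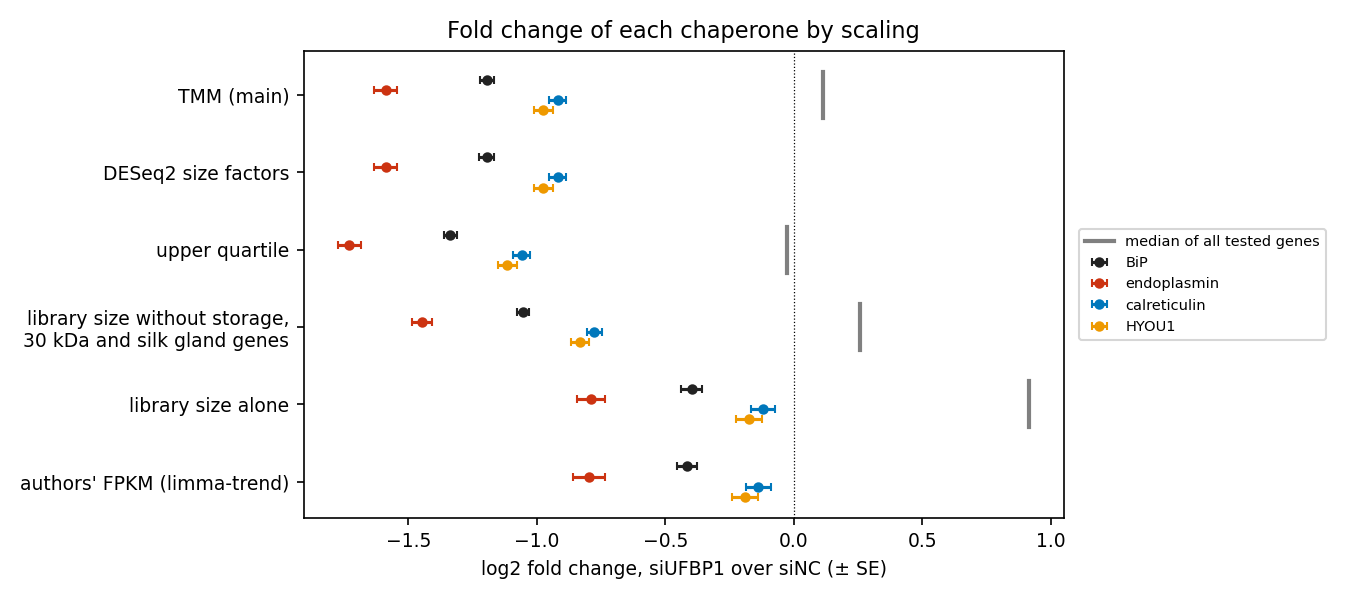
Log2 fold change (x axis, siUFBP1 over siNC, bars are SE) of the 4 chaperones under 6 scalings, with the median of all tested genes as a grey line in 4 of the 6 rows. Endoplasmin lies furthest to the left in each row and calreticulin nearest to 0, and with library size alone calreticulin is at -0.12 beside an all-gene median of 0.92.

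Levels of different genes were set side by side in the authors' FPKM, which divides by gene length and by library size but does not correct for composition. In the siNC libraries BiP had 746, 775 and 767 FPKM and calreticulin 362, 388 and 387. In the same libraries endoplasmin had 81.0, 93.6 and 92.1 FPKM and HYOU1 44.4, 45.3 and 47.4. The order BiP, calreticulin, endoplasmin, HYOU1 held in each siNC library, and no neighbours in it overlapped. In the siUFBP1 libraries BiP had 552, 563 and 599 FPKM, and calreticulin had 339.99, 328 and 365. Endoplasmin had 49.1, 49.8 and 53.3 FPKM and HYOU1 38.5, 40.1 and 41.2 in siUFBP1. The order was the same there, again without overlap between neighbours, but endoplasmin came close to HYOU1. Between groups, FPKM did not overlap for BiP, endoplasmin and HYOU1, a pattern found on the lower side for 5.31% of genes with a mean of at least 1 FPKM. For calreticulin the highest siUFBP1 library, replicate 3 at 365 FPKM, lay above the lowest siNC library at 362 FPKM.

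Ranked by FPKM among all gene models, BiP was 35th or 36th in each siNC library and 109th to 111th in each siUFBP1 library. Calreticulin went from places 82 to 95 to places 166 to 173, endoplasmin from 351 to 388 to places 792 to 797, and HYOU1 from 594 to 631 to places 977 to 1013. Such places also drop when other genes rise in FPKM. In mean FPKM itself BiP was 1.33-fold lower, endoplasmin 1.75-fold, HYOU1 1.14-fold and calreticulin 1.10-fold. Summed over the 4 genes, FPKM was 1276 ± 37.3 in siNC and 1007 ± 45.1 in siUFBP1. Within this sum, BiP took 59.8% ± 0.628 in siNC and 56.8% ± 0.535 in siUFBP1, and endoplasmin 6.96% ± 0.338 and 5.04% ± 0.0347. Calreticulin took 29.7% ± 0.306 in siNC and 34.2% ± 0.665 in siUFBP1, and HYOU1 3.58% ± 0.0935 and 3.97% ± 0.102. BiP and endoplasmin thus made up less of the summed FPKM in each siUFBP1 library than in any siNC library, and calreticulin and HYOU1 more.

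Ratios of 2 chaperones within a library do not depend on any library scaling, and they were used to compare the chaperones with each other in all 6 pairs. BiP had 7.55 ± 0.456 counts per endoplasmin count in siNC and 9.89 ± 0.0268 in siUFBP1. Per HYOU1 count, BiP had 12.9 ± 0.362 in siNC and 11.1 ± 0.19 in siUFBP1, and per calreticulin count 2.70 ± 0.0565 and 2.23 ± 0.065. So BiP fell less than endoplasmin and more than HYOU1 and calreticulin. The log2 ratio of BiP to endoplasmin was higher in siUFBP1 by 0.39 ± 0.05, while that of BiP to calreticulin stood at -0.28 ± 0.03 and that of BiP to HYOU1 at -0.22 ± 0.03, siUFBP1 minus siNC (SE). Endoplasmin against calreticulin gave -0.67 ± 0.04 and endoplasmin against HYOU1 -0.61 ± 0.05 (SE). In these 5 pairs the groups did not overlap, and each reached 0.1, the smallest p that a two-sided exact permutation test allows with 3 against 3 (0.12 adjusted over the 6 pairs).

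In a further edgeR fit, library sizes were replaced by the counts of the second chaperone of a pair, so that every gene was tested relative to that chaperone. The difference of BiP passed against endoplasmin (adjusted p = 6.27e-06), against calreticulin (5.12e-06) and against HYOU1 (3.96e-05), adjusted over 10728 genes in edgeR. Endoplasmin passed against calreticulin (edgeR, adjusted p = 5.62e-11) and against HYOU1 (3.24e-10). The noise of the chaperone used as the scale is shared by all genes of such a fit, so these p-values may be too small. For each of these 5 pairs the exact permutation test gave an adjusted p of 0.12. Most genes pass such a fit on the higher side, 96.4% with endoplasmin as the scale, whereas 3.2% with calreticulin and 2.68% with HYOU1 as the scale were called lower, as BiP and endoplasmin were. With HYOU1 as the scale 86% of genes were called higher, and calreticulin was not among them. Calreticulin had 4.79 ± 0.136 counts per HYOU1 count in siNC and 4.98 ± 0.219 in siUFBP1, with overlapping groups. The difference of their log2 ratio was 0.06 ± 0.04 (SE; exact permutation test, two-sided p = 0.2; edgeR, adjusted p = 0.24), so a difference between these 2 genes was not detected. A 95% interval from the normal distribution ran from -0.03 to 0.14 in the edgeR fit. It makes no allowance for the few libraries behind its SE and may be too narrow.

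**Figure D3:**
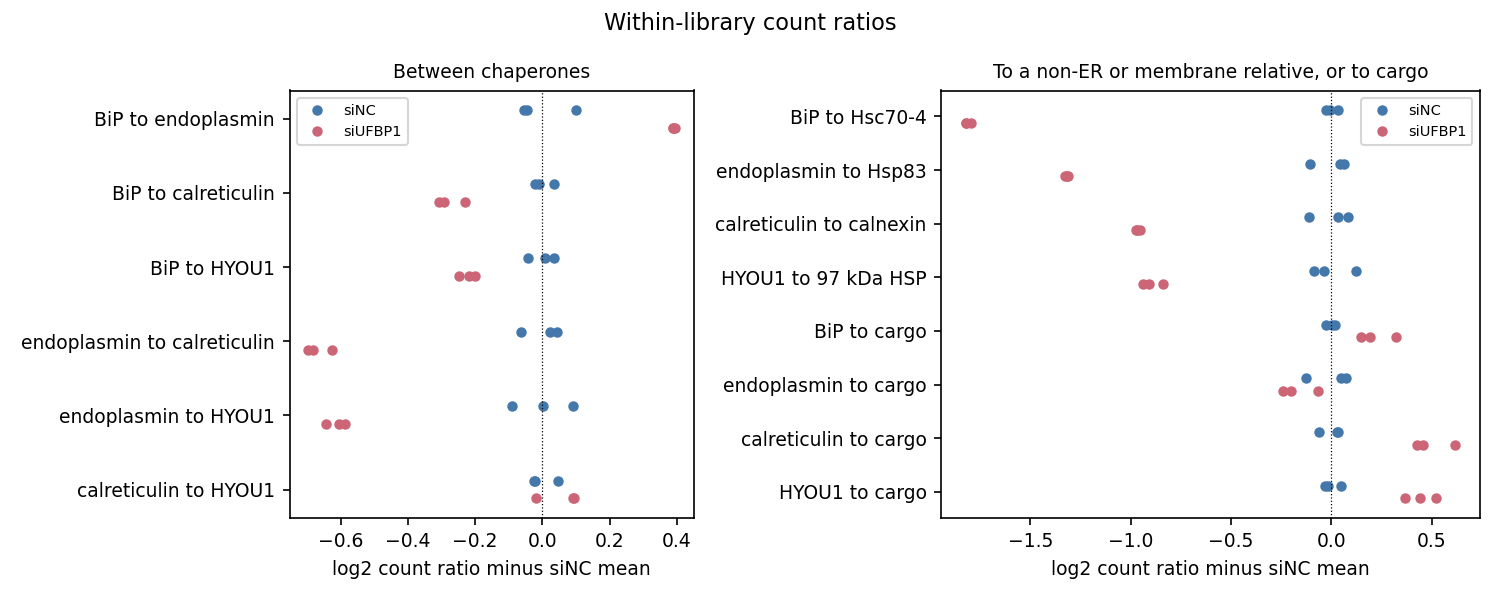
Log2 ratios of counts within each library minus the mean of the siNC libraries (x axes), with 1 point per library. The left panel shows the 6 pairs of chaperones, where only calreticulin to HYOU1 overlaps between groups, and the right panel shows each chaperone against a relative outside the lumen or against summed storage protein and 30 kDa lipoprotein counts (cargo), where endoplasmin to cargo overlaps.

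Each chaperone was also set against its most highly expressed relative elsewhere in the cell, by the same kind of ratio. BiP and Hsc70-4 (KWMTBOMO05355), the constitutive cytosolic HSP70, had nearly equal counts in siNC, with 0.989 ± 0.0211 BiP counts per Hsc70-4 count, and 0.282 ± 0.00296 in siUFBP1. This ratio shifted by -1.81 ± 0.02 on the log2 scale, since Hsc70-4 rose from 2669 ± 112 to 4088 ± 36.1 CPM while BiP fell. Endoplasmin against Hsp83 (KWMTBOMO16087), the cytosolic HSP90, shifted by -1.32 ± 0.05. Calreticulin against calnexin (KWMTBOMO08116), its membrane-bound lectin relative in the ER, shifted by -0.96 ± 0.06. HYOU1 against the cytosolic 97 kDa heat shock protein (KWMTBOMO07820), of the HSP110 type, shifted by -0.89 ± 0.07 (SE). In none of these 4 ratios did the groups overlap, and each gave p = 0.1 in the two-sided exact permutation test (0.114 adjusted over 8 ratios), the smallest it allows. How many of all genes would separate from these relatives in the same way was not counted. With TMM 28.4% of all tested genes were lower and 40% higher, but those calls were not made against the relatives. Such separation therefore cannot be said to set the chaperones apart.

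The other 4 ratios took the summed counts of storage proteins and 30 kDa lipoproteins, abundant secreted products of the fat body, as the measure of cargo. BiP had 27.0 ± 0.429 counts per 10000 cargo counts in siNC and 31.6 ± 2.01 in siUFBP1, while calreticulin ranged from 9.60 to 10.2 in siNC and from 13.4 to 15.3 in siUFBP1. HYOU1 had 2.09 ± 0.0618 in siNC and 2.84 ± 0.156 in siUFBP1, so these 3 chaperones were higher relative to cargo in siUFBP1, without overlap (exact permutation test, two-sided p = 0.1 each). Endoplasmin had 3.59 ± 0.262 and 3.19 ± 0.207 counts per 10000 cargo counts, and its groups overlapped (exact permutation test, two-sided p = 0.2; log2 difference -0.17 ± 0.08). On the log2 scale the shift for BiP was 0.22 ± 0.05. With both terms in FPKM, BiP shifted by 0.10 and its groups overlapped (exact permutation test, two-sided p = 0.2), while endoplasmin stood at -0.29 and its groups no longer overlapped (p = 0.1), so that neither separation held on both scales. With library size alone 80.2% of all tested genes were higher and 4.22% lower, while the cargo share of counts fell to 0.65 of its siNC mean. How many genes were higher relative to cargo was not counted, so these separations cannot be said to set the chaperones apart.

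**Figure D4:**
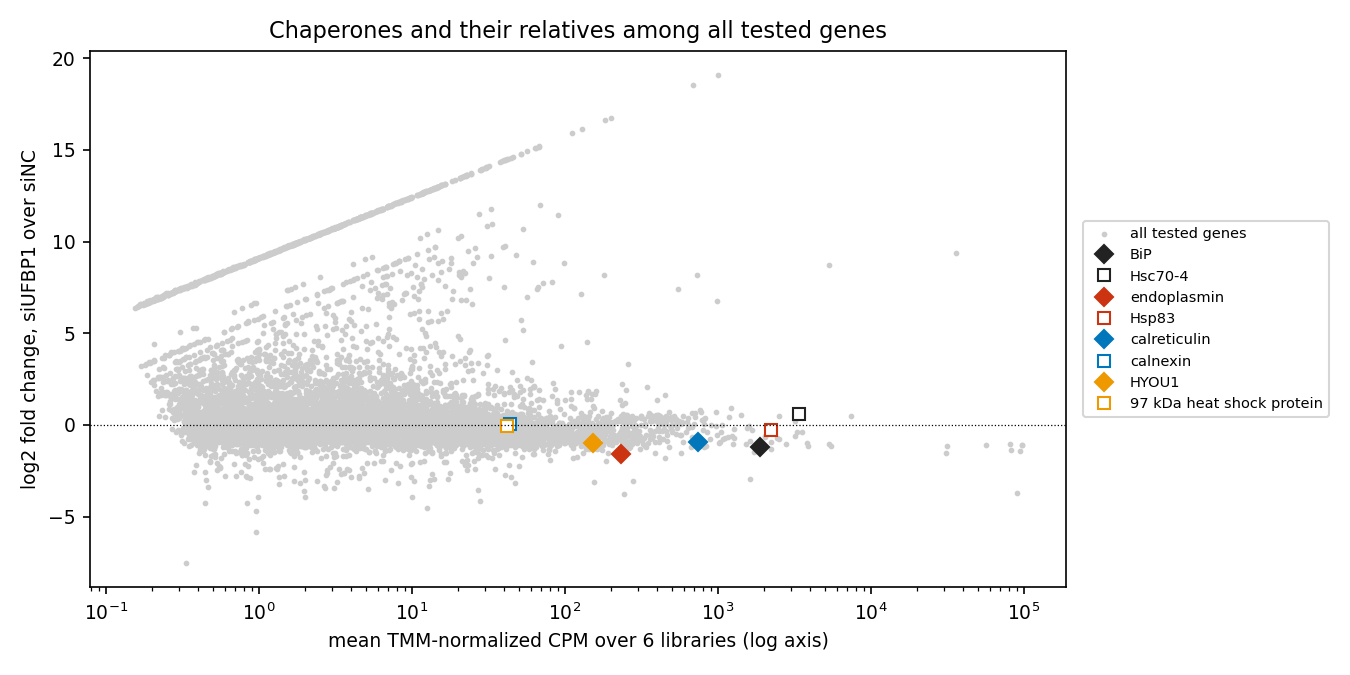
Log2 fold change (y axis, siUFBP1 over siNC, TMM scaling) against mean TMM-normalized CPM (x axis, log scale) for all 10729 tested genes (grey), with the 4 chaperones (filled diamonds) and their relatives outside the ER lumen (open squares). The chaperones lie in the lower part of the cloud of abundant genes and their relatives near 0, except Hsc70-4 at 0.62. The rising line of grey points at the top left is made of genes with no count in siNC.

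The genes that work with the chaperones were then counted in lists chosen by function. Across all tested genes 28.4% were lower, 40% were higher and the median log2 fold change was 0.11. This background depends on abundance. Of all tested genes 6.46% lay at or below the log2 fold change of calreticulin, but 17.5% of genes with at least 100 CPM lay below it. The lists were not set against genes of like abundance. Among 10 co-chaperones and regulators of BiP, 8 passed as lower and 1 as higher, 1 failed the test, and the median was -0.62. MANF (KWMTBOMO10127), a secreted ER stress protein that binds BiP, went from 165 ± 4.82 to 93.2 ± 1.35 CPM, a log2 fold change of -0.83 ± 0.03. The lumenal J-domain protein shv (KWMTBOMO02147), known in Drosophila as a counterpart of mammalian DNAJB11, had a log2 fold change of -0.75 ± 0.04. DNAJC3 (KWMTBOMO09361), which in mammals hands unfolded proteins to BiP, had a log2 fold change of -1.13 ± 0.05 (SE), close to that of BiP. With library size alone, DNAJC3 (-0.33) was the only lower gene of this list, 5 were higher and the median was 0.18, MANF and shv did not pass, and 80.2% of all tested genes were higher. The higher gene with TMM was a DNAJC16 gene model (KWMTBOMO06004) at 0.664 ± 0.254 CPM in siNC and 1.38 ± 0.273 in siUFBP1.

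Of 11 genes of the lectin chaperone cycle, in which calreticulin and calnexin hold glycoproteins while they fold, 8 passed as lower, 2 as higher and 1 failed (median -0.74). ERp57 (KWMTBOMO03002), the disulfide isomerase that calreticulin recruits, went from 556 ± 15.9 to 322 ± 11.2 CPM, a log2 fold change of -0.79 ± 0.03. Glucosidase 2, which trims glucose from glycans and so sets lectin binding, had log2 fold changes of -0.41 ± 0.03 for its beta subunit (KWMTBOMO03473) and -0.70 ± 0.04 for its alpha subunit (KWMTBOMO14447). Calnexin did not pass, at 43.3 ± 1.28 CPM in siNC and 44.7 ± 1.13 in siUFBP1. The higher genes were EDEM2 (KWMTBOMO07997), a mannosidase-like protein of ER-associated degradation, at 0.37 ± 0.06 (SE), and an ER alpha-mannosidase (KWMTBOMO00242) with under 2 CPM in each group. With library size alone, 1 gene of this list was lower and 4 were higher, with a median of 0.06, beside 4.22% lower and 80.2% higher among all tested genes. There the beta subunit of glucosidase 2 turned to higher at 0.39, calnexin passed as higher at 0.85, and ERp57 and the alpha subunit did not pass. Calnexin also passed at 0.19 with library size taken without storage protein, 30 kDa lipoprotein and silk gland genes. The 2 gene models for the glycoprotein glucosyltransferase UGGT carry the same KEGG gene number and may be parts of the same gene.

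Of 12 tested genes of ER retention and calcium, 6 passed as lower and 3 as higher, 3 failed the test, and the median was -0.16. The higher ones were 2 models of the ryanodine receptor, a calcium release channel, and KWMTBOMO01660. The receptor models (KWMTBOMO14367 and KWMTBOMO14368) share a product name apart from the isoform and were low, at 0.878 ± 0.31 and 1.03 ± 0.291 CPM in siNC. Swiss-Prot names KWMTBOMO01660 reticulocalbin-2 and NR an enhancer of mRNA-decapping protein 4, so its place in the list is uncertain. The list also holds 2 models each for calumenin and STIM. The KDEL receptor (KWMTBOMO10292), which returns escaped lumenal chaperones from the Golgi, had a log2 fold change of -0.22 ± 0.04. The calcium pump SERCA (KWMTBOMO05541), which fills the ER store that calreticulin buffers, did not pass, at 179 ± 9.48 CPM in siNC and 169 ± 7.35 in siUFBP1 (edgeR, adjusted p = 0.069), but it passed as lower with upper quartile scaling (-0.23) and as higher with library size alone (0.71). A calumenin model (KWMTBOMO08097), for a calcium-binding ER protein, was at -0.44 ± 0.05 (SE). By library size alone 10 genes of this list passed as higher and none as lower, the KDEL receptor at 0.58 and calumenin at 0.35, beside 80.2% of all tested genes higher. Among 13 other ER foldases, 6 were lower and 5 higher (median 0.04). Their most abundant members were the protein disulfide-isomerase model KWMTBOMO06524 at -0.25 ± 0.03 and a further model of that product name, KWMTBOMO16867, at -0.36 ± 0.03. Next came the prolyl isomerase FKBP14 (KWMTBOMO00184) at -1.18 ± 0.03 (SE). With library size alone FKBP14 was still lower (-0.38), while both disulfide-isomerase models passed as higher (0.54 and 0.44). ERO1 (KWMTBOMO05932), the oxidase that recharges disulfide-isomerases, was singled out after its values were seen. It rose from 2.79 ± 0.573 to 44.4 ± 1.53 CPM, a log2 fold change of 3.99 ± 0.09 (SE).

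In the unfolded protein response, which in animals raises ER chaperone transcripts when unfolded proteins accumulate, 3 of 5 genes were lower and 2 higher. The ATF4-like factor (KWMTBOMO06713), named activating transcription factor of chaperone, was at -0.59 ± 0.03. The other lower genes were IRE1 (KWMTBOMO10231) at -1.02 ± 0.12 and a PERK-like kinase (KWMTBOMO04082) at -0.30 ± 0.07 (SE). With library size alone IRE1 did not pass and the PERK-like kinase turned to 0.50. XBP1 (KWMTBOMO05926), the factor made active by IRE1 splicing, was at 0.12 ± 0.04 and ATF6 (KWMTBOMO08766) at 0.22 ± 0.07 (SE), and splicing is not visible in gene counts. The split turned to 3 lower and none higher with upper quartile scaling and, by library size alone, to 4 higher with none lower, the ATF4-like factor turning to 0.20. Among 10 HSP70, HSP90 and HSP110 genes outside the ER, 5 were higher, 4 lower and 1 did not pass, with a median of 0.27. The higher ones were Hsc70-4 and the consecutively numbered models KWMTBOMO16088 to KWMTBOMO16091, at log2 fold changes of 1.80 to 2.23. Beside Hsp83, the lower ones were Hsc70-5 (KWMTBOMO14549) at -0.69, HSPA14 (KWMTBOMO05597) at -0.34 and TRAP1 (KWMTBOMO07776) at -0.23. With library size alone HSPA14 and TRAP1 passed as higher and Hsc70-5 did not pass. The inducible HSP68-like gene KWMTBOMO16088 rose from 82.6 ± 7.49 to 388 ± 7.22 CPM, Hsc70-4 stood at 0.62 ± 0.03 and Hsp83 at -0.27 ± 0.03 (0.53 with library size alone). Reads of the similar HSP68-like copies may have been shared between them. With library size alone each of the 6 lists held more higher than lower genes, as did all tested genes, of which 80.2% were higher and 4.22% lower.

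**Figure D5:**
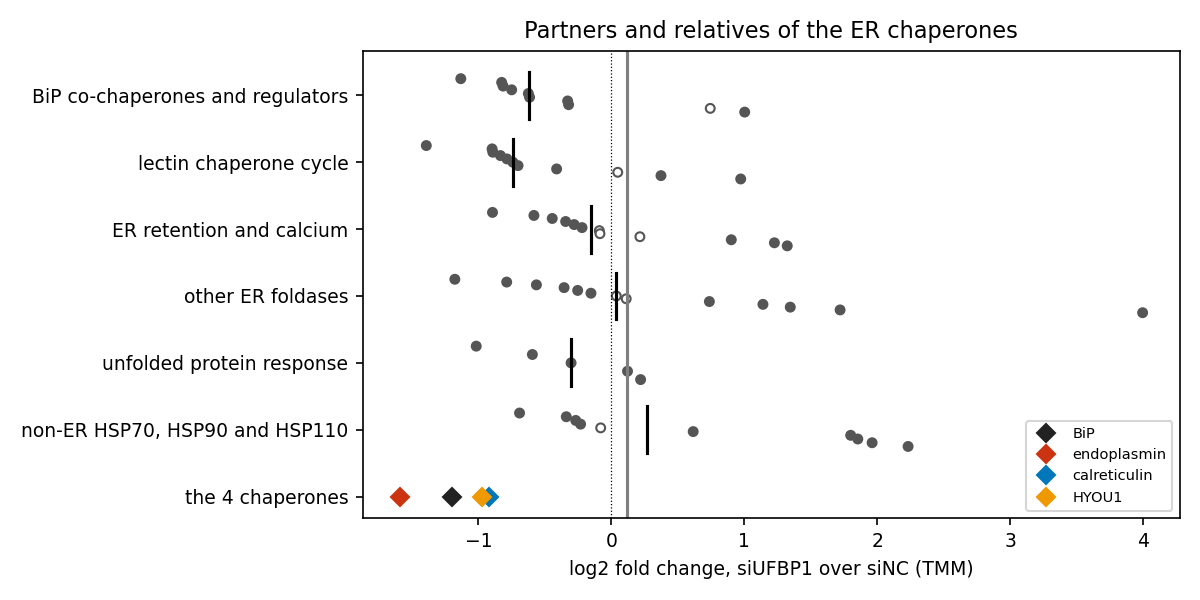
Log2 fold change (x axis, siUFBP1 over siNC, TMM scaling) of each tested gene in 6 lists of chaperone partners and relatives, filled where the adjusted p was below 0.05, with list medians as black bars, the median of all tested genes as a grey line and the 4 lumen chaperones as diamonds. BiP co-chaperones and lectin cycle genes lie mostly to the left of 0, and ERO1 is the point furthest to the right at 3.99. With library size alone the medians of both lists lie above 0.

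Genes most like each chaperone were found by the distance between log2 CPM values, centred on each gene's mean, over the 6 libraries, among 841 other genes with a described product and a mean of at least 50 CPM. Nearest to BiP were a collagen alpha-2(I) chain-like gene (KWMTBOMO00319) at a distance of 0.021, a tudor staphylococcal nuclease (KWMTBOMO00462) at 0.0465 and a translation initiation factor 3 subunit D (KWMTBOMO10208) at 0.0498. Nearest to HYOU1 was apolipophorin (KWMTBOMO15892), the lipid carrier that the fat body secretes, at 0.0621, with 5099 ± 128 CPM in siNC and 2625 ± 34.99 in siUFBP1. Innexin 2 (KWMTBOMO08631) at 0.0636 and a spectrin beta chain (KWMTBOMO11045) at 0.0712 followed. Nearest to calreticulin were cathepsin D (KWMTBOMO14000) at 0.0581, sarcosine dehydrogenase (KWMTBOMO08849) at 0.0662 and a 27 kDa glycoprotein (KWMTBOMO12939) at 0.0677. Nearest to endoplasmin were a long-chain fatty acid CoA ligase (KWMTBOMO02325) at 0.1, alpha-aminoadipic semialdehyde synthase (KWMTBOMO07391) at 0.113 and a pancreatic lipase-related gene (KWMTBOMO13051) at 0.131. Among the chaperones themselves, distances ran from 0.127 between calreticulin and HYOU1 to 0.824 between endoplasmin and calreticulin. The nearest genes were picked for small distances, so these values are not set against theirs. With 2 groups these distances mostly reflect the size of the group difference.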

How the data were processed

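Raw read counts per gene model were deposited by the authors for 6 libraries, per the file headers, along with the authors' FPKM, which divides by gene length and sequencing depth. The authors' own log2 fold changes and adjusted p-values came from DESeq2, per the file headers. Reads were processed with fastp and HISAT2, per the submitters' processing notes. For tool versions, the read counter, strand, shared reads and genome build, the sources used here give nothing. Groups and replicate numbers came from the sample titles.

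Of 16877 gene models, 10729 passed edgeR's filterByExpr, and those left out held 0.0479% of the counts. The main test was edgeR's quasi-likelihood test with TMM factors and group as the only term, called at an adjusted p of 0.05. SE was taken from the fold change and the F statistic. The script was tested on simulated data. Replicates differed beyond sampling noise (chi-square per degree of freedom 2.68 to 14.4, over genes reaching 40 counts). Same-numbered libraries did not deviate together (r from -0.0187 to 0.0242 across genes), so numbers were not taken as pairs. The chaperones and the gene lists (patterns on NR or Swiss-Prot product names) were chosen with earlier results of these data known. Named genes were the 4 chaperones, the 3 most abundant genes of each list and the 3 nearest genes to each chaperone. The genes of lists that are named beside these were chosen after their values were seen. Relatives for ratios were the most abundant of their kind. Alternatives were other scalings, filters and tests, FPKM on a log2 scale, a replicate block and leaving out each library. No sequences were used here. Fits used edgeR 4.0.16, DESeq2 1.42.0 and limma 3.58.1 under R 4.3.3, and permutation tests scipy 1.17.1 under Python 3.11.15.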

Additional observations from a re-analysis of the deposited data

How the results depend on the processing

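All 4 chaperones kept their direction and an adjusted p under 0.05 in the 17 alternatives run for each, in which BiP ran from -1.34 to -0.40, endoplasmin from -1.73 to -0.79, HYOU1 from -1.12 to -0.18 and calreticulin from -1.06 to -0.12 on the log2 scale. Without each library in turn, BiP ran from -1.21 to -1.18 and endoplasmin from -1.65 to -1.56. With replicate number as a block in edgeR, a pairing the libraries did not bear out, BiP stood at -1.20, endoplasmin at -1.59, HYOU1 at -0.98 and calreticulin at -0.92, and no chaperone call changed. With library size taken without storage protein, 30 kDa lipoprotein and silk gland genes, a setting chosen after seeing the data, they stood at -1.05, -1.45, -0.83 and -0.78. Counts of called genes across the table, 4293 higher and 3043 lower, moved to 8603 and 453 with library size alone, to 6625 and 406 with limma-trend on log2(FPKM + 1) and to 6601 and 406 with 0.1 in place of 1. Upper quartile scaling gave 3641 higher and 3806 lower. The cause of these moves was not tested beyond the scaling itself. Ratios between chaperones kept their sign without each library in turn. In edgeR scaled on the second chaperone, 5 of 6 differences passed, which the exact test cannot do with 3 against 3: BiP to endoplasmin 0.39, BiP to calreticulin -0.28, BiP to HYOU1 -0.22, endoplasmin to calreticulin -0.67 and endoplasmin to HYOU1 -0.61. UFBP1, at 0.0043 in the main test, stood at -0.14 with upper quartile scaling, 0.80 with library size alone and 0.15 without storage, 30 kDa lipoprotein and silk gland genes, scalings tried for it after seeing the data.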
